A study of Mus musculus with 6 samples.

Results

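Antigen presentation in lung cells selected for CD31 was followed through 31 genes of the major histocompatibility complex (MHC) class I and class II pathways. They were taken by symbol from a list of classical and nonclassical class I heavy chains, the light chain, class I-like molecules, peptide supply genes, class II chains with their chaperones, and the transactivators of both classes. All 31 matched one row of the 56941 in the count table, and all 31 passed the filter on low counts, among 17072 genes tested. The mice were pups killed on postnatal day 7 and kept since postnatal day 0 in room air (21% oxygen; 3 libraries) or in hyperoxia (75% oxygen; 3 libraries). Lungs were digested with Liberase, and cells carrying CD31, an adhesion molecule of endothelium, were held on a magnetic column by antibody-coated beads. The labels give no strain, genotype, sex or pooling, and do not say that replicates are separate animals. The p-values therefore measure only spread among the 6 libraries, which may be technical in part.

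Class I molecules pair a heavy chain with beta-2-microglobulin (B2m) and show peptides made in the cytosol to CD8 T cells and natural killer cells. The immunoproteasome cuts these peptides, the TAP transporter carries them into the endoplasmic reticulum, tapasin loads them, and NLRC5 drives transcription of the genes. Class II molecules show peptides from the endosome to CD4 T cells. The invariant chain (Cd74) guards their groove, H2-DM exchanges the peptide, H2-O restrains H2-DM, and CIITA switches the genes on. Interferon-gamma induces both classes. Dendritic cells, B cells, macrophages and alveolar type 2 cells carry class II, and lung capillary endothelium can carry it too.

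Total counts ran from 39379793 to 42343192 per library, and 19471 to 23989 genes had at least 1 count. Levels are CPM, read counts put on the scale of equal library totals, with each total corrected by the trimmed mean of M-values (TMM), a factor of 0.975 to 1.04 here. The 9 endothelial markers were abundant, with sums of 11732 to 16294 CPM in room air and 9596 to 13212 CPM in hyperoxia. Their median log2 fold change was -0.30, and 1 of them, Egfl7, was called lower (against 4.41% of all genes tested). The markers of alveolar type 2 cells were abundant too (6 genes, 11198 to 17793 CPM). All 6 alveolar type 1 markers rose (against 6.77% of all genes tested), from summed levels of 1155 to 1805 CPM in room air to 3167 to 4342 CPM in hyperoxia. Reads of 4 Y-linked genes were present in the room air libraries and in hyperoxia 2 (5433 to 6361 counts) and nearly absent from hyperoxia 1 and 3 (2 and 0 counts). Y-linked status is therefore partly confounded with the groups. Hyperoxia 2 thus did not come from the same animal or pool of animals as hyperoxia 1 or 3. For the other libraries separate sources are not shown. A fit with Y-linked status as a term sets hyperoxia 2 alone against the room air libraries. Room air 3 held the highest summed leukocyte and alveolar type 2 markers of the 6 libraries.

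Most estimates for these genes were below 0, and few single genes passed the test. Of the 31 genes, 5 were lower in hyperoxia (16.1%, against 4.41% of all genes tested), 0 were higher (against 6.77%) and 26 did not pass at an adjusted p of 0.05 in edgeR's quasi-likelihood test. Those that fell were the nonclassical heavy chain genes H2-Q4, H2-Q6 and H2-M3, the lipid-presenting Cd1d1 and the class II regulator H2-Ob. DESeq2 also called 0 genes higher, and 9 lower (against 6.96%), and limma-voom called 0 and 4 (against 4.32%). At an unadjusted p below 0.05 edgeR found 17 lower (54.8%, against 11.7% of all genes tested) and 0 higher (against 13.5%). The fitted log2 fold change was below 0 for 28 of the 31, with a median of -0.48 beside -0.0093 over all genes tested. The groups did not overlap, with hyperoxia below, for 9 genes (29%, against 14.4% of all genes tested). They did not overlap with hyperoxia above for 1 gene, Mr1 (against 16.5%). In bulk RNA, fewer cells of a type and less RNA per cell cannot be told apart.

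**Figure D1:**
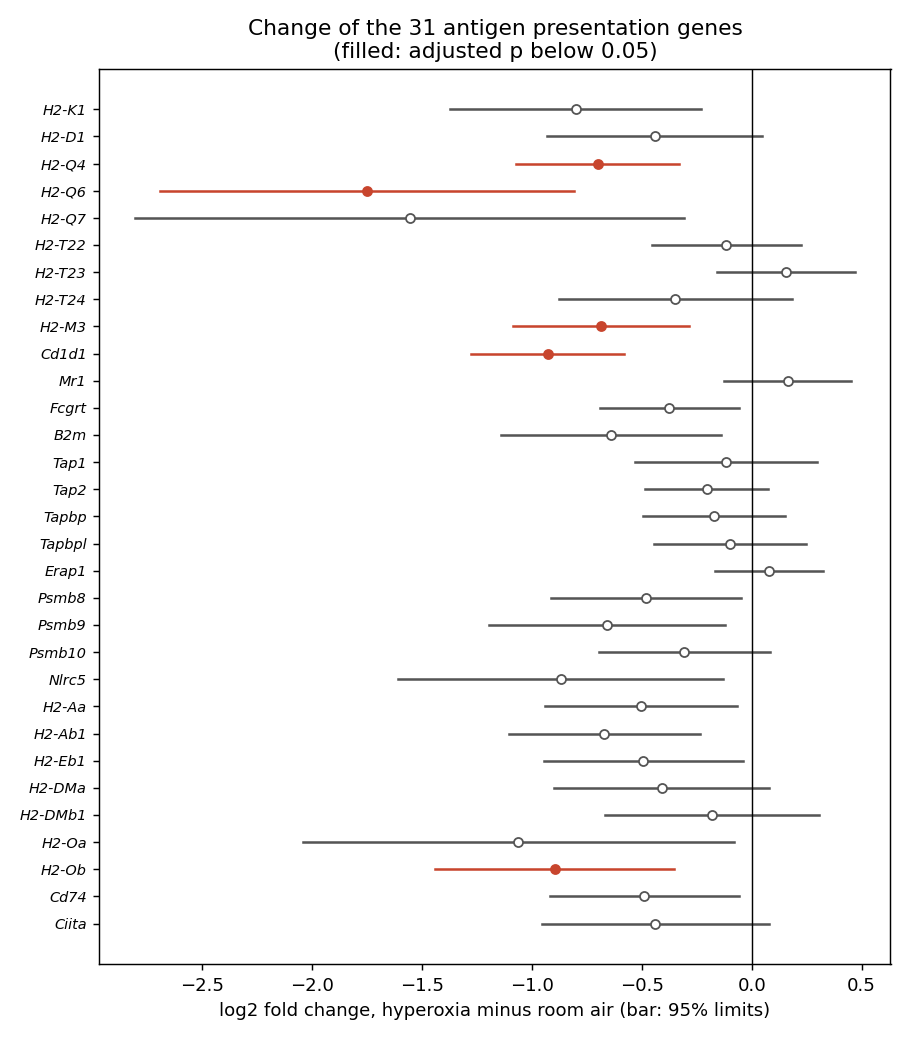
Log2 fold change of each of the 31 genes, hyperoxia minus room air (x axis), with 95% limits as bars and genes on the y axis. Filled red points mark the 5 genes with an adjusted p below 0.05, and the estimates run from -1.75 for H2-Q6 to 0.16 for Mr1.

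Leaving out single libraries or changing the processing moved the number called. The numbers in this paragraph are counts of the 31 genes, and each percentage is the share of all genes tested that were lower in the same fit. Without room air 2, 12 genes were lower (against 2.12%). These were H2-K1, H2-Q4, H2-Q6, H2-Q7, Cd1d1, B2m, Psmb9, H2-Aa, H2-Ab1, H2-Eb1, H2-Ob and Cd74. Without room air 1 or hyperoxia 1 only Cd1d1 was (against 3.15% and 2.74%), 3 genes were without hyperoxia 2 or hyperoxia 3 (against 2.8% and 2.42%), and 4 without room air 3 (against 4.26%). Leaving out hyperoxia 2 and room air 3 together left 3 (against 4.16%). With no filter on low counts 16 genes were lower (against 4.38%), and with a filter at 1 CPM 6 were (against 5.88%). Scaling by DESeq2's size factors gave 6 (against 4.62%), by the upper quartile 5 (against 5.17%) and by library size alone 5 (against 4.94%). With Y-linked status as a term 7 were lower (against 7.16%), and with a term for the replicate number 5 (against 3.01%). A threshold of 0.01 left 1 (against 1.36%), and 0.1 gave 7 (against 7.23%).

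The classical heavy chains present peptides to CD8 T cells. H2-K1 (ENSMUSG00000061232) stood at 814, 323 and 608 CPM in room air 1 to 3 and at 334, 328 and 339.8 CPM in hyperoxia 1 to 3. Room air 1 and 3 were high, and room air 2 lay below every hyperoxia library, so the groups overlapped. The mean was 582 ± 247 CPM for room air, against 334 ± 6 CPM for hyperoxia (SD, n = 3 each), a log2 fold change of -0.80 (SE 0.26, edgeR adjusted p = 0.0746). Without room air 2 it was -1.09 (edgeR adjusted p = 0.00519). H2-D1 (ENSMUSG00000073411) was at 1506, 754 and 1102 CPM in room air and at 940.4, 738 and 797 CPM in hyperoxia (fitted log2 fold change -0.44, SE 0.22, edgeR adjusted p = 0.249). Its room air libraries kept the same order, with room air 2 inside the hyperoxia range.

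B2m (ENSMUSG00000060802), the light chain common to the class I heavy chains, was at 849.6, 411 and 693 CPM in room air and at 473, 366 and 416 CPM in hyperoxia. Again room air 2 lay among the hyperoxia libraries. The log2 fold change was -0.64 (SE 0.23, edgeR adjusted p = 0.101). It passed by DESeq2 (adjusted p = 0.0112) and, in edgeR, without room air 2 (log2 fold change -0.88, adjusted p = 0.0138).

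**Figure D2:**
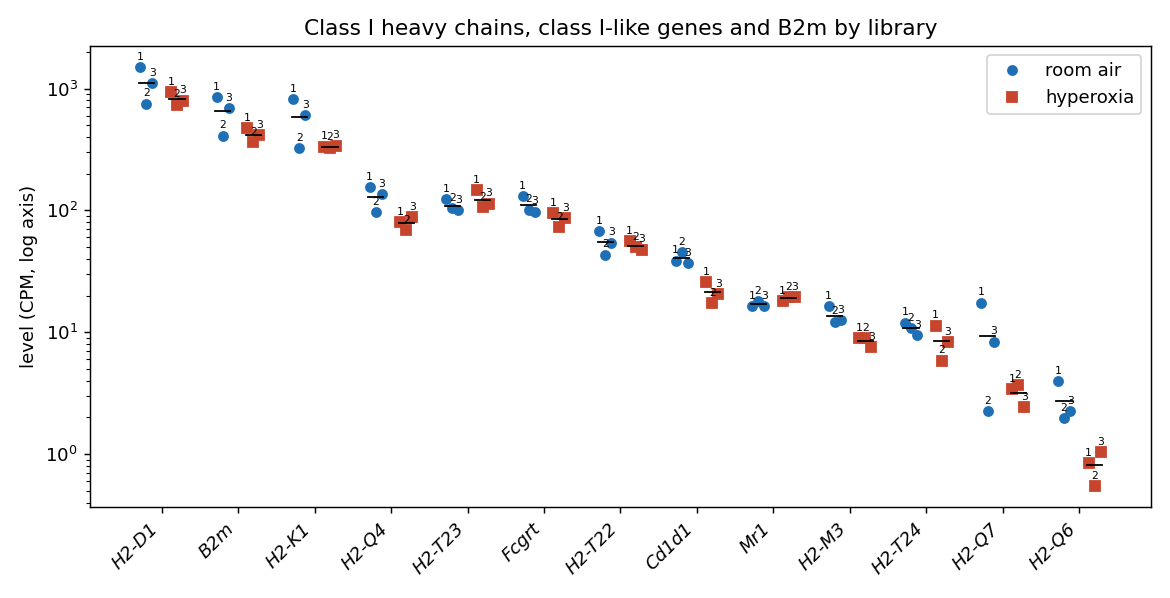
Level in CPM on a log axis (y) of the class I heavy chain genes, class I-like genes and B2m (x); blue circles are room air libraries, red squares hyperoxia libraries, digits the replicate and black bars the group means. For H2-K1, H2-D1, B2m and H2-Q7 room air 2 sits within or below the range of the hyperoxia libraries, whereas for Cd1d1 and H2-M3 each room air library lies above each hyperoxia library.

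The start regions of these genes are shown because several class I genes hold the same short motifs there. The sequences are RefSeq windows on GRCm38.p6, from 250 bases before to 50 bases after the annotated start, and the capitals mark every match, on either strand, to 6 motifs. They are CCAAT (the CCAAT or Y box), TGACG (the core of a cAMP response element, as in the X2 box), GGGGATTCC (a kappaB site), GAANNGAAA (an IRF element), the core of an interferon-stimulated response element, a longer IRF element given by name only, and TTCNNNGAA (a STAT element). TGACG can overlap its own reverse complement, and matches to the IRF element and to the response element core can overlap. The windows are H2-K1 at chr17:34000284-34000583 (minus strand), B2m at chr2:122147437-122147736 (plus), H2-Q4 at chr17:35379367-35379666 (plus) and H2-M3 at chr17:37269984-37270283 (plus).
H2-K1: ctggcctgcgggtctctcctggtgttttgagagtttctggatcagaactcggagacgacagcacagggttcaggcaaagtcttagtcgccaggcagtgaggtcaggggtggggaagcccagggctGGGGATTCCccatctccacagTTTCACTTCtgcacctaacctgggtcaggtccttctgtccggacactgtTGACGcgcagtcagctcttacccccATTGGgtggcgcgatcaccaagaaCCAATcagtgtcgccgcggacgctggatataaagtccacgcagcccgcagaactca
B2m: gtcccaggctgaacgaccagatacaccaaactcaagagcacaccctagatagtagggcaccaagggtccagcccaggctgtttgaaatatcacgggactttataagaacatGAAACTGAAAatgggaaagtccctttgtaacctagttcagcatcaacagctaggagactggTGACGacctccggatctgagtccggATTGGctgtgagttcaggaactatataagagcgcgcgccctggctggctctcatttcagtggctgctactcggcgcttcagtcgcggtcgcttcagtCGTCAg
H2-Q4: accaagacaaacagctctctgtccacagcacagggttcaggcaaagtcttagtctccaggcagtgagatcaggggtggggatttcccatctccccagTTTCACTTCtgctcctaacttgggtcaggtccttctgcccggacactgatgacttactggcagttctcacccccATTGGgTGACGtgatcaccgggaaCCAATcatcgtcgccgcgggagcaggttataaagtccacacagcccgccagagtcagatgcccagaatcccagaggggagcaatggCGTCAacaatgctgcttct
H2-M3: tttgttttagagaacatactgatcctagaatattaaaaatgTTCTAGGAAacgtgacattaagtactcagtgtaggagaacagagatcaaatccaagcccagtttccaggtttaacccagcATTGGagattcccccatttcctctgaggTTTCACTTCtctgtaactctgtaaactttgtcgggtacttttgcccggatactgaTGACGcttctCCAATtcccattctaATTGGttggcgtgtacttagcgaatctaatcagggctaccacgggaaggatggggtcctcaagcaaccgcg

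Windows were present for 23 of the 31 genes (25 windows). GGGGATTCC occurred in 0.25% of 32851 mouse windows and in those of 4 of these genes, H2-K1, H2-D1, H2-Q6 and H2-Q7. GAANNGAAA occurred in 7.52% of all windows and in those of 6 of these genes, the same 4 plus H2-Q4 and H2-M3. The log2 fold changes of these 6 ran from -1.75 to -0.44. The response element core (3.44% of all windows) occurred in B2m, Erap1, H2-T22 and H2-T23, whose log2 fold changes ran from -0.64 to 0.16. CCAAT was in 37.4% of all windows and in those of 18 genes of the pathway. TGACG was in 20.8% of all windows and in those of 11, and TTCNNNGAA was in 8.3% of all windows and in those of H2-M3 and Psmb8. These matches are descriptions, and their part in the levels was not tested.

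Among the 7 nonclassical heavy chains 3 fell (against 4.41% of all genes tested) and 4 did not pass. H2-Q4 (ENSMUSG00000035929), of the Qa family, was at 156, 96.4 and 135 CPM in room air and at 80.8, 69.1 and 88.5 CPM in hyperoxia. Each hyperoxia library lay below each room air library, and room air 2 was the nearest to them. The mean fell from 129 ± 30.2 to 79.5 ± 9.81 CPM (SD, n = 3), a log2 fold change of -0.70 (SE 0.17, edgeR adjusted p = 0.0227). Leaving out one library ended the call in 3 cases, with an edgeR adjusted p of 0.0809 (room air 1 out), 0.0594 (hyperoxia 1 out) or 0.0697 (hyperoxia 2 out). An opposite-strand gene covers 19.1% of its exonic length.

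H2-M3 (ENSMUSG00000016206), which presents formylated bacterial peptides, was at 16.3, 12.2 and 12.5 CPM in room air and at 8.97, 9.02 and 7.57 CPM in hyperoxia. The groups were apart, room air 1 being the highest. The log2 fold change was -0.68 (SE 0.18, edgeR adjusted p = 0.0353). The edgeR adjusted p rose to 0.116 with room air 1 left out, 0.0613 with room air 2, 0.076 with hyperoxia 1 and 0.124 with hyperoxia 3. The call was also lost with Y-linked status as a term, where hyperoxia 2 alone stands against room air.

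H2-Q6 and H2-Q7 encode Qa-2 type molecules. H2-Q6 (ENSMUSG00000073409) was low, at 3.97, 1.99 and 2.24 CPM in room air and at 0.848, 0.544 and 1.04 CPM in hyperoxia. All hyperoxia libraries were below all room air libraries (log2 fold change -1.75, SE 0.43, edgeR adjusted p = 0.0245). Its edgeR adjusted p became 0.115 with room air 1 left out and 0.0618 with hyperoxia 1 left out. H2-Q7 ranged from 2.24 to 17.5 CPM in room air, with room air 1 the highest and room air 2 the lowest of all 6 libraries, and from 2.44 to 3.71 CPM in hyperoxia (fitted log2 fold change -1.56, SE 0.56, edgeR adjusted p = 0.11). Without room air 2 its log2 fold change was -2.02 (edgeR adjusted p = 0.0101).

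Near-identical copies make single Q and T genes uncertain. In GENCODE M21 transcripts, 32% of the stretches of 50 bases of H2-Q6 and 26.4% of those of H2-Q7 also occur in transcripts of other genes, mostly of the Q family. For H2-T22 the share was 34.5%, with H2-T10 as the main partner, for H2-Q4 21.8%, for H2-DMb1 22.7% (H2-DMb2) and for Cd1d1 19.1% (Cd1d2). For H2-K1 and H2-D1 it was 9.63% and 12.8%, and for B2m 0%. Exons of other genes overlap those of H2-T22 (29.4% of its exonic length), Tapbp (29%), H2-Oa (22.8%), Tap2 (18.5%), Psmb8 (14.7%), Erap1 (11.5%) and H2-DMa (10.4%) too. With H2-Q6 and H2-Q7 summed, the level was 21.5, 4.23 and 10.6 CPM in room air, against 4.26, 4.25 and 3.48 CPM in hyperoxia (fitted log2 fold change -1.60, SE 0.45, edgeR adjusted p = 0.0455). Room air 2 was then at the level of hyperoxia 1 and 2.

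H2-T23 encodes Qa-1, a ligand of inhibitory receptors on natural killer cells. It was at 125, 104 and 100.1 CPM in room air and at 146, 106 and 114 CPM in hyperoxia (log2 fold change 0.16, 95% limits -0.16 to 0.47, edgeR adjusted p = 0.544). H2-T22, a ligand of some gamma-delta T cells, was at 68, 43.4 and 54.5 CPM in room air and at 55.7, 50.0 and 47.6 CPM in hyperoxia (log2 fold change -0.12, 95% limits -0.46 to 0.22). For both T genes the groups overlapped. H2-T24 lay between 5.86 and 12 CPM across all libraries and did not pass.

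Cd1d1 (ENSMUSG00000028076) presents lipids to natural killer T cells and lies outside the MHC, on chromosome 3. It was at 38.7, 45.6 and 37.2 CPM in room air and at 25.8, 17.4 and 20.7 CPM in hyperoxia. Here room air 2 was the highest library, and the groups were well apart. The mean fell from 40.5 ± 4.48 to 21.3 ± 4.23 CPM (SD, n = 3), a 1.9-fold lower level (log2 fold change -0.93, SE 0.16, edgeR adjusted p = 0.00401). This gene alone among the 31 was called in each of the 16 alternatives run for single genes, leave-one-out fits included. They also include the fit with Y-linked status as a term, which sets hyperoxia 2 alone against room air. In the full fit 3 of 6 general capillary markers fell (against 4.41% of all genes tested). Estimates in that list ran from -1.62 for Kit to 0.15 for Plvap, around a median of -0.73. Of 6 markers of aerocytes, another capillary type, 2 rose (against 6.77%) and 1 fell (against 4.41%), and their median was 0.35. The 9 pan-endothelial markers, 1 of them lower, had a median of -0.30. The part of cell composition in the change of Cd1d1 was not tested.

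The other class I-like genes did not pass. Fcgrt encodes the neonatal Fc receptor, which carries and recycles immunoglobulin G. It was at 131, 102 and 97.8 CPM in room air and at 95.7, 72.5 and 87.1 CPM in hyperoxia, each hyperoxia library below each room air library (log2 fold change -0.37, SE 0.14, edgeR adjusted p = 0.126). Mr1, which presents vitamin B metabolites to mucosal-associated T cells, was higher in each hyperoxia library (18.1 to 19.5 CPM) than in each room air library (16.5 to 18 CPM), by little (log2 fold change 0.16, 95% limits -0.13 to 0.45).

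All 5 genes of peptide transport, loading and trimming failed to pass by edgeR, DESeq2 and limma-voom. At an unadjusted edgeR p below 0.05, 0 were lower (against 11.7% of all genes tested) and 0 higher (against 13.5%). Tap1, a subunit of the peptide transporter, was at 105, 61.7 and 70.7 CPM in room air and at 77.4, 61 and 80.8 CPM in hyperoxia (log2 fold change -0.12, 95% limits -0.53 to 0.29). Tap2, its partner, was at 58.6, 47.8 and 46 CPM in room air and at 48.3, 40.5 and 43.5 CPM in hyperoxia (log2 fold change -0.21, 95% limits -0.48 to 0.07). The hyperoxia libraries thus lay within or near the room air range for both. Tapbp, the gene of tapasin, was at 338, 265 and 259 CPM in room air and at 275, 216 and 274 CPM in hyperoxia (log2 fold change -0.17). Tapbpl, a tapasin-related peptide editor, was at 41.3, 34 and 35.4 CPM in room air and at 40.9, 27 and 35.3 CPM in hyperoxia (log2 fold change -0.10). Hyperoxia 2 was the lowest of the 6 libraries for Tap1, Tap2, Tapbp and Tapbpl. Erap1, the peptidase that trims peptides in the endoplasmic reticulum, was at 110.1, 93 and 88.1 CPM in room air and at 104, 97.4 and 106 CPM in hyperoxia (log2 fold change 0.08, 95% limits -0.17 to 0.33).

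The 3 immunoproteasome subunits replace catalytic subunits of the constitutive proteasome. Psmb8 was at 42.5, 27.5 and 35.3 CPM in room air and at 30.0, 18.8 and 26.6 CPM in hyperoxia (fitted log2 fold change -0.48, SE 0.20, edgeR adjusted p = 0.15). Psmb9 was at 27.9, 14.9 and 23.7 CPM in room air and at 17.7, 10.5 and 13.9 CPM in hyperoxia (fitted log2 fold change -0.66, SE 0.24, edgeR adjusted p = 0.116). Psmb10 was at 60.2, 45.4 and 48.2 CPM in room air and at 52.1, 31.9 and 40.3 CPM in hyperoxia (fitted log2 fold change -0.31, SE 0.18, edgeR adjusted p = 0.318). Single genes overlapped between groups, hyperoxia 2 being the lowest library for each. Psmb9 was called by DESeq2 (adjusted p = 0.0382) and without room air 2 (edgeR adjusted p = 0.0492). In the fit with Y-linked status as a term calls were gained, for these subunits among others, and lost for other genes. Neither is given weight, because that fit sets hyperoxia 2 alone against room air.

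The constitutive partners did not pass either, with estimates above 0. The log2 fold changes were 0.30 for Psmb5 (edgeR adjusted p = 0.193), 0.13 for Psmb6 and 0.17 for Psmb7. In each library the log2 ratio of an immunoproteasome subunit to its partner was taken. The ratio of Psmb8 to Psmb5 was -0.07, -0.40 and -0.15 in room air and -0.95, -1.28 and -0.74 in hyperoxia. For Psmb9 to Psmb6 it was -1.99, -2.62 and -2.10 in room air and -2.77, -3.35 and -2.92 in hyperoxia. For Psmb10 to Psmb7 it was -0.15, -0.36 and -0.42 in room air and -0.52, -1.25 and -0.64 in hyperoxia. All 3 ratios were lower in each hyperoxia library than in each room air library, by 0.78, 0.78 and 0.50 between group means. Ratios within a library do not depend on its scaling, and no p is given for them. How often ratios of other gene pairs are apart in this way was not examined.

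**Figure D3:**
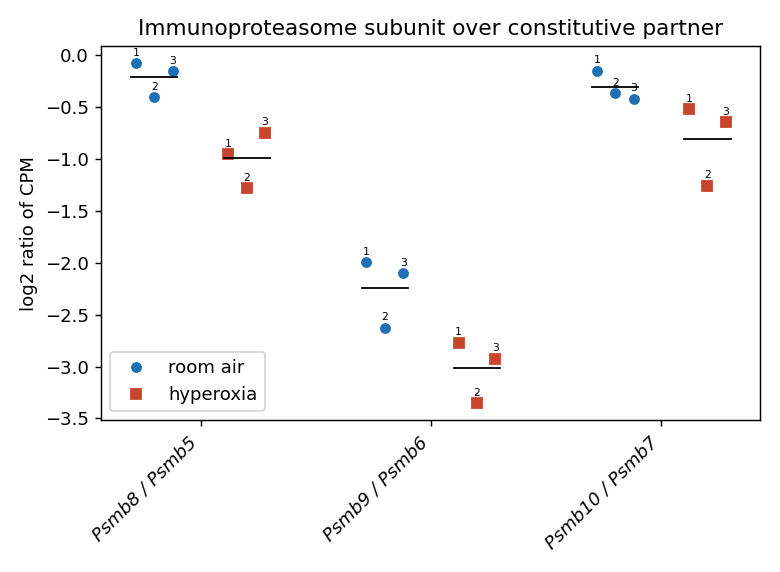
Log2 ratio of CPM (y) of each immunoproteasome subunit to its constitutive partner (x), with blue circles for room air libraries, red squares for hyperoxia libraries, digits for replicates and bars for means. The hyperoxia libraries lie below the room air libraries for each pair, and hyperoxia 2 is the lowest.

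Psmb9 and Tap1 start back to back, so their windows overlap. That of Tap1 is shown because it covers the start of both genes. It lies at chr17:34187306-34187605 (plus strand), and the capitals mark CCAAT and TGACG on either strand.
Tap1: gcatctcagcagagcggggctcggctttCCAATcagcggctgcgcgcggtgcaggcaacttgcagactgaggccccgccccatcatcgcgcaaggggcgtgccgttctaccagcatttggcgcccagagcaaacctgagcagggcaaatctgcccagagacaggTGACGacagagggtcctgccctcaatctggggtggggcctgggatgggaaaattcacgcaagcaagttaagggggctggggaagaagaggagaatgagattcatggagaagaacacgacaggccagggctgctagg

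Nlrc5, the class I transactivator, was scarce, at 3.67 to 7.77 CPM in room air, against 2.25 to 4.14 CPM in hyperoxia (fitted log2 fold change -0.87, SE 0.34, edgeR adjusted p = 0.13). Its room air libraries had the same order as H2-K1 and B2m, with room air 1 the highest and room air 2 the lowest.

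Class II genes gave a single call among 9 (11.1%, against 4.41% of all genes tested), that of H2-Ob, and log2 fold changes from -1.06 to -0.18. H2-Ab1, the A beta chain, was at 136, 89.6 and 177 CPM in room air and at 85.1, 86.3 and 81.3 CPM in hyperoxia. Each hyperoxia library was below each room air library, by little against room air 2 (log2 fold change -0.67, SE 0.20, edgeR adjusted p = 0.0524). It passed by DESeq2 (adjusted p = 0.00427), and without room air 2 by edgeR (adjusted p = 0.00612). H2-Aa, the A alpha chain, was at 117, 76.5 and 153 CPM in room air and at 80.0, 84 and 80.5 CPM in hyperoxia (fitted log2 fold change -0.50, SE 0.20, edgeR adjusted p = 0.138). H2-Eb1, the E beta chain, was at 84.5, 54.9 and 112 CPM in room air and at 56.1, 63.8 and 58.9 CPM in hyperoxia (fitted log2 fold change -0.49, SE 0.21, edgeR adjusted p = 0.163). For both, room air 2 lay below all hyperoxia libraries.

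Cd74, the invariant chain, was at 495, 341 and 638 CPM in room air and at 332, 373 and 345 CPM in hyperoxia (fitted log2 fold change -0.49, SE 0.19, edgeR adjusted p = 0.142). It passed by DESeq2 (adjusted p = 0.0377) and without room air 2 (edgeR adjusted p = 0.0257). H2-Ob (ENSMUSG00000041538), a subunit of the H2-O inhibitor made chiefly in B cells, was at 11.7, 10.1 and 19.2 CPM in room air and at 8.31, 7.37 and 6.35 CPM in hyperoxia. The groups were apart, room air 3 standing highest. The mean fell from 13.7 ± 4.83 to 7.34 ± 0.982 CPM (SD, n = 3; log2 fold change -0.90, SE 0.25, edgeR adjusted p = 0.0412). Removal of any library other than room air 2 ended the call (edgeR adjusted p from 0.0597 to 0.129), and limma-voom did not make it (adjusted p = 0.0592). The call was also lost with Y-linked status as a term, a contrast of hyperoxia 2 alone with room air. Without room air 3 the log2 fold change was -0.57.

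The other class II genes did not pass. H2-Oa, the partner of H2-Ob, lay at 1.73 to 3.64 CPM in room air, against 0.643 to 1.7 CPM in hyperoxia (fitted log2 fold change -1.06, SE 0.44, edgeR adjusted p = 0.163), the groups not overlapping. H2-DMa and H2-DMb1, the peptide exchange subunits, had log2 fold changes of -0.41 and -0.18. Ciita, the class II transactivator, ran from 5.97 to 8.78 CPM in room air and from 4.29 to 5.84 CPM in hyperoxia (log2 fold change -0.44, edgeR adjusted p = 0.278), also without overlap. The start regions of H2-Aa (chr17:34287774-34288073, minus strand) and H2-Ob (chr17:34238655-34238954, plus strand) are shown for comparison with those of class I; both hold CCAAT in capitals, and H2-Aa also TGACG.
H2-Aa: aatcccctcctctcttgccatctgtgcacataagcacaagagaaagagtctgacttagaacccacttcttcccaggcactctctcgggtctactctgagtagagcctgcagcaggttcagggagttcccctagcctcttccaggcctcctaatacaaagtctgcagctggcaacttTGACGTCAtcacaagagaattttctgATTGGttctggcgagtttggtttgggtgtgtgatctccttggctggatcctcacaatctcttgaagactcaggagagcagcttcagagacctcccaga
H2-Ob: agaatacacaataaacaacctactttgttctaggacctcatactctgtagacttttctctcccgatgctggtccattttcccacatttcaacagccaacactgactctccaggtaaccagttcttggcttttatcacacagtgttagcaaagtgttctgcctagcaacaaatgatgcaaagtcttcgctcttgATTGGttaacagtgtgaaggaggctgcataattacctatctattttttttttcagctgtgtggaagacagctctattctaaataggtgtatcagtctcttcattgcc

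Markers of other cells that carry class II were present in the libraries. The 4 pan-leukocyte markers summed to 329, 228 and 459 CPM in room air and to 361, 384 and 285 CPM in hyperoxia, with none of the 4 called. Of 7 B cell markers none was called by edgeR. At an unadjusted edgeR p below 0.05, 1 was lower (against 11.7% of all genes tested), and DESeq2 called 1 lower (against 6.96%). The B cell marker sums were 286, 272 and 448 CPM in room air, against 309, 294 and 235 CPM in hyperoxia. The median log2 fold change of these markers was -0.29. Among 9 macrophage and monocyte markers 1, Marco, rose (against 6.77% of all genes tested), with sums of 102 to 169 CPM in room air, against 149 to 225 CPM in hyperoxia. Of 9 dendritic cell markers 7 were tested and 1, Itgax, rose (against 6.77%). The sums of the 9 were 158 to 172 CPM in room air and 139 to 154 CPM in hyperoxia, while Flt3, Xcr1, Cd209a, Batf3 and Siglech were near 0 (at most 1.23 CPM). The sums came mostly from Zbtb46, Clec9a, Ccr7 and Itgax (room air means 75.9, 40.4, 31.3 and 16.3 CPM). They are therefore a weak measure of dendritic cells. All 6 alveolar type 2 markers did not pass, at 11198 to 17793 CPM in room air, against 12698 to 15899 CPM in hyperoxia. The room air libraries stood in the same order, 3 above 1 above 2, for the class II genes and for the leukocyte, B cell, macrophage and alveolar type 2 sums. The dendritic cell sums had another order, 3 above 2 above 1. In hyperoxia the leukocyte and alveolar type 2 sums lay within the room air range, and the dendritic cell sums lay below it. The B cell sum of hyperoxia 3 was below that range, and the macrophage sum of hyperoxia 2 above it. The part of these cells in the class II levels was not tested.

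**Figure D4:**
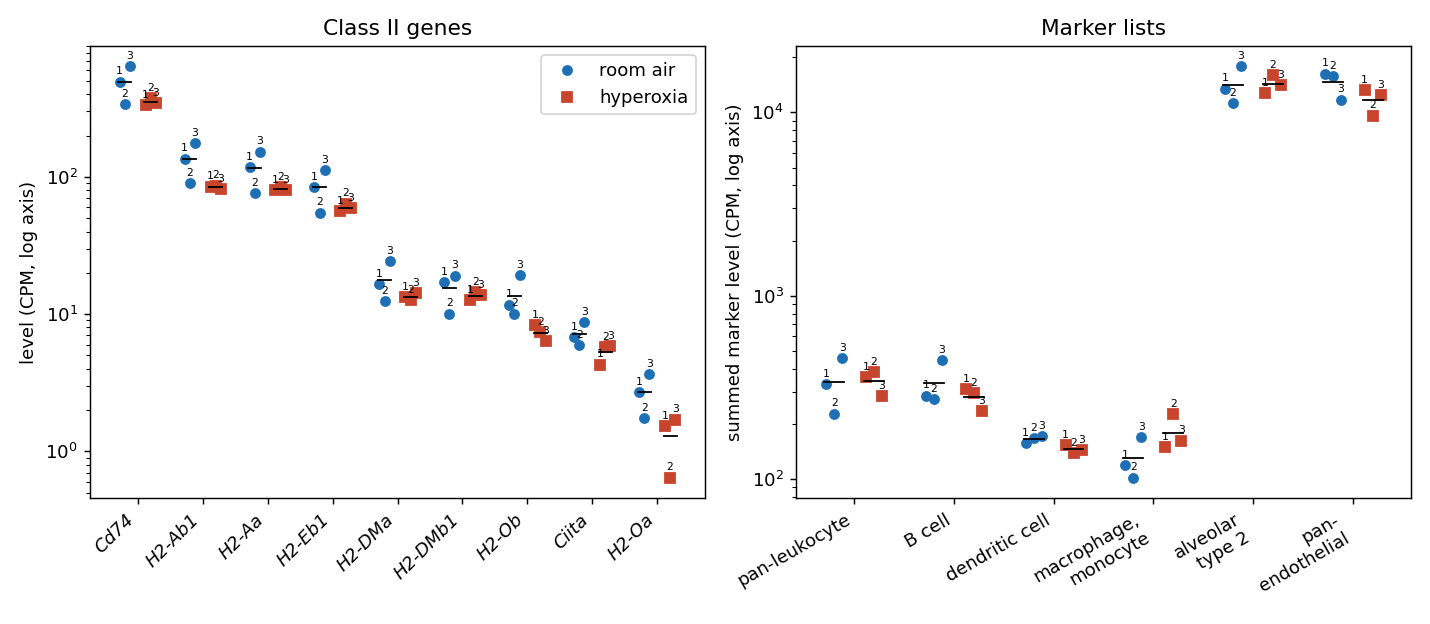
Left, level in CPM on a log axis of the 9 class II genes; right, summed CPM on a log axis of 6 marker lists; blue circles are room air libraries, red squares hyperoxia libraries, digits the replicate and bars the means. Room air 3 is highest and room air 2 lowest in room air for each class II gene and for the leukocyte, B cell, macrophage and alveolar type 2 lists.

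Room air 2 was the lowest of the room air libraries for 23 of the 31 genes (74.2%, against 32.2% of all genes tested), 14 of 22 in class I and all 9 in class II. Room air 1 was the highest room air library for 20 of the 22 class I genes (against 5570 of all 17072 genes tested). Room air 3 was the highest for all 9 class II genes (against 6090 of the 17072). The median coefficient of variation of the class II genes was 33.1% in room air and 6.59% in hyperoxia. For class I it was 19% and 14.1%, and over all genes tested 15.3% and 14.2%. Relative to the room air mean, the median log2 level of the class II genes was 0.01, -0.58 and 0.40 in room air and -0.58, -0.46 and -0.51 in hyperoxia. That of the class I genes was 0.26, -0.26 and -0.11 in room air and -0.22, -0.65 and -0.39 in hyperoxia. Class II in room air 2 was thus at or below the medians of the hyperoxia libraries. Genes measured in 1 library are not independent of each other.

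**Figure D5:**
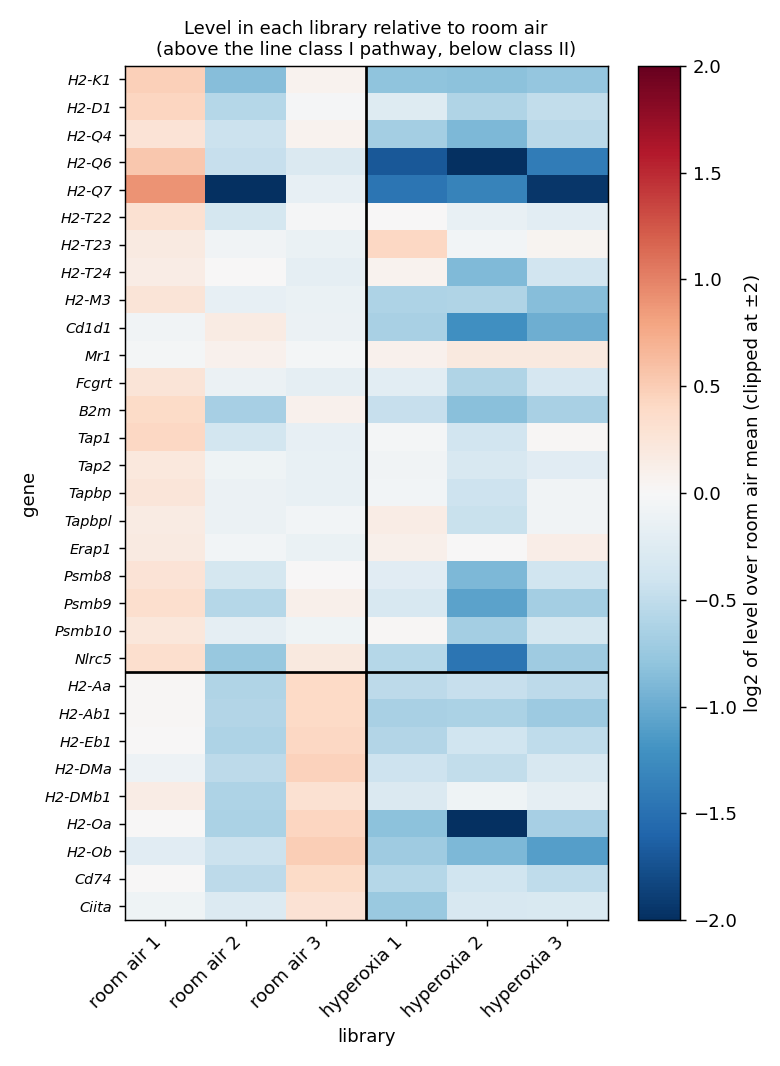
Log2 of the level in each library (x) over the room air mean for each gene (y), blue below and red above, clipped at 2 in either direction; the horizontal line parts class I from class II and the vertical line room air from hyperoxia. Room air 2 is blue for H2-K1, H2-Q7, B2m, Nlrc5 and all class II genes, as the hyperoxia libraries are.

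Of 88 further genes of the pathway tested, 8 rose (9.09%, against 6.77% of all genes tested) and 9 fell (10.2%, against 4.41%). The same shares of all genes stand beside the counts of each list that follows. Of the proteases and ligases of the class II compartment, 5 of 8 rose (against 6.77%), 0 fell (against 4.41%) and 3 did not pass (median log2 fold change 0.49). The count lower was also 0 at an unadjusted edgeR p below 0.05 (against 11.7%), by DESeq2 (against 6.96%) and by limma-voom (against 4.32%). The 5 that rose were Ctss, Ctsd, Ctsl, Lgmn and Ctsb. Ctss, cathepsin S, which degrades the invariant chain, was at 55.7, 45 and 91.2 CPM in room air and at 138, 163 and 101 CPM in hyperoxia (fitted log2 fold change 1.07, SE 0.24, edgeR adjusted p = 0.0186). The groups were apart, but edgeR's adjusted p was 0.0793 with room air 1 left out, 0.0723 with room air 2, 0.0582 with hyperoxia 1 and 0.113 with hyperoxia 2. Ctsd and Ctsl, 2 further lysosomal cathepsins, rose from 215 ± 23.5 to 359.9 ± 28.5 CPM and from 142 ± 1.11 to 224 ± 22.8 CPM (SD, n = 3), and Lgmn, the asparaginyl endopeptidase legumain, from 107 ± 1.15 to 158 ± 4.07 CPM. Their log2 fold changes were 0.74, 0.66 and 0.56, and edgeR's adjusted p-values were 0.00401, 0.00394 and 0.00441. Ctsb, cathepsin B, had a log2 fold change of 0.43 (edgeR adjusted p = 0.045). Its call was lost with any single library left out (edgeR adjusted p from 0.0639 to 0.153), and when scaled by DESeq2's size factors (0.0516) or the upper quartile (0.0549). It was also lost with a term for the replicate number (edgeR adjusted p = 0.116), and with Y-linked status as a term, hyperoxia 2 alone against room air. These genes are lysosomal in many cells. Of the 9 macrophage and monocyte markers Marco rose (log2 fold change 2.22) and 8 did not pass, with a median of 0.16 over the list. Of the 7 dendritic cell markers tested Itgax rose (0.94) and 6 did not pass, among them Zbtb46 (-0.58, edgeR adjusted p = 0.0651), with a median of -0.10. The part of these cells was not tested.

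Among further MHC genes 11 of 18 matched passed the filter, of which 1 fell and 10 did not pass (median log2 fold change -1.10). Estimates ran from -2.21 for Cd1d2, at most at 1.93 CPM, to 0.86 for H2-Q2. Hyperoxia lay below room air without overlap for 5 of the 11 (against 14.4% of all genes tested). DESeq2 called 3 lower (against 6.96%), and limma-voom 1 (against 4.32%). H2-DMb2, the second H2-DM beta gene, was at 13.6, 10.7 and 17 CPM in room air and at 7.05, 8.13 and 6.32 CPM in hyperoxia (fitted log2 fold change -0.94, SE 0.21, edgeR adjusted p = 0.0155). Leaving out hyperoxia 3 ended this call (edgeR adjusted p = 0.0626). With Y-linked status as a term, a contrast of hyperoxia 2 alone with room air, the log2 fold change was -0.76. Of 8 genes of class I loading and the proteasome activator, 1 fell. This was Calr, the chaperone calreticulin, from 802 ± 58.4 to 545 ± 51.3 CPM (SD, n = 3; log2 fold change -0.56, SE 0.13, edgeR adjusted p = 0.0204). It passed on removal of room air 3 and of no other single library (edgeR adjusted p from 0.0561 to 0.0775 for the other 5).

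Of 12 genes listed as regulators of MHC transcription, Ezh2 among them, 3 fell and 9 did not pass (median log2 fold change -0.24). Nfya, a subunit of the CCAAT-binding factor, was at 103, 117 and 93.8 CPM in room air and at 71.4, 66.5 and 72.8 CPM in hyperoxia (fitted log2 fold change -0.58, SE 0.11, edgeR adjusted p = 0.00779). Ezh2, a histone methyltransferase gene that is also high in dividing cells, fell from 35.9 ± 6.12 to 21.3 ± 1.68 CPM (SD, n = 3). Its log2 fold change was -0.75 (edgeR adjusted p = 0.00854). With Y-linked status as a term, a contrast of hyperoxia 2 alone with room air, it was -0.64 and not called. Rfxank, a subunit of the X box factor, fell from 13.1 ± 1.38 to 8.65 ± 0.861 CPM (SD, n = 3; log2 fold change -0.60, edgeR adjusted p = 0.0482). The call of Rfxank was lost when any 1 of the 6 libraries was left out (edgeR adjusted p from 0.0571 to 0.163).

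Of 13 genes of the interferon receptors and JAK-STAT signalling tested, 2 fell and 11 did not pass. Ifngr1, the ligand-binding receptor chain for interferon-gamma, fell from 152 ± 5.09 to 108 ± 9.98 CPM (SD, n = 3; log2 fold change -0.49, SE 0.11, edgeR adjusted p = 0.015), a call ended by removing room air 2 (0.051 by edgeR), hyperoxia 2 (0.0585) or hyperoxia 3 (0.0657). The kinase gene Tyk2 fell by 0.54 on the log2 scale (edgeR adjusted p = 0.0384), with adjusted p-values of 0.103 to 0.141 when room air 1, room air 2, hyperoxia 2 or hyperoxia 3 was left out. Ifng itself was below the filter.

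All 14 interferon-gamma-inducible GTPase and chemokine genes failed to pass in edgeR, DESeq2 and limma-voom, with a median of -0.02. At an unadjusted edgeR p below 0.05, 3 were higher (against 13.5% of all genes tested) and 2 lower (against 11.7%). The most abundant were Gbp9 (100.2 ± 15.3 and 78.1 ± 9.57 CPM in room air and hyperoxia; SD, n = 3; log2 fold change -0.36, edgeR adjusted p = 0.119) and Gbp2 (log2 fold change -0.04, 95% limits -0.50 to 0.42). Of 13 type I interferon-stimulated genes tested 2 rose. Ifit3 was at 2.88, 2.75 and 3.93 CPM in room air and at 22.8, 25.8 and 18.8 CPM in hyperoxia (fitted log2 fold change 2.81, SE 0.21, edgeR adjusted p = 9.62e-05). Ifit2 rose too (log2 fold change 0.94, SE 0.17, edgeR adjusted p = 0.00573), while the other 11 did not pass.

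Of 7 costimulatory and checkpoint ligands tested 2 fell and 1 rose. Cd40, a receptor through which T cells license presenting cells, fell from 44.6 ± 5.43 to 28.3 ± 4.1 CPM (SD, n = 3; log2 fold change -0.66, SE 0.14, edgeR adjusted p = 0.0136), a call ended by removing room air 1 (0.0505 by edgeR). Icosl, the ligand of ICOS, fell by 0.80 on the log2 scale (edgeR adjusted p = 0.0344), a call that held on removal of hyperoxia 1 and of no other single library (0.0711 to 0.118). Cd274, the gene of PD-L1, rose from 4.28 ± 0.879 to 7.4 ± 0.111 CPM (SD, n = 3; log2 fold change 0.79, SE 0.23, edgeR adjusted p = 0.047), and its call was lost when any 1 of the 6 libraries was left out (edgeR adjusted p from 0.056 to 0.143).

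Per kilobase of exon (GENCODE M21), B2m had the highest level of the 31 genes in room air, 757 ± 258 CPM per kilobase (SD, n = 3), and in hyperoxia, 486 ± 62.4. H2-D1 followed with 435 ± 146 and 320.0 ± 40.3, Cd74 with 293 ± 88.6 and 208 ± 12.6, and H2-K1 with 198 ± 83.9 and 114 ± 2.04 CPM per kilobase. In room air neighbours in this order overlapped within their SDs, but the order itself was the same in every library of both groups. The transactivators stood at the other end, Nlrc5 at 0.727 ± 0.259 and Ciita at 0.753 ± 0.152 CPM per kilobase in room air. H2-Q6 was at 1.31 ± 0.516 and H2-Q7 at 2.2 ± 1.8 there. The annotation is on GRCm38, whereas the counts are listed with GRCm39, so these lengths are approximate. On that annotation 21 of the 31 genes lie on chromosome 17, where the mouse MHC is, and 10 elsewhere, B2m on chromosome 2 and Cd1d1 on chromosome 3 among them.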

How the data were processed

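CD31-selected lung cells were sequenced as RNA, 3 libraries per group, after library preparation with the VAHTS Universal V8 kit, per the labels' protocols. The deposited table holds raw counts, 1 row for each of 56941 Ensembl identifiers (51948 matched a symbol). The submitters' processing notes name HISAT2 2.2.1, featureCounts, Subread 2.0.6, DESeq2 and GRCm39, without saying what each did. Annotation release, strandedness of counting and handling of multimapping reads are not stated there or in the labels, which leaves near-identical, overlapping or antisense genes uncertain. Groups and replicate numbers came from the titles.

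Computation used edgeR 4.0.16 in R 4.3.3, with limma 3.58.1 and DESeq2 1.42.0 as alternatives. filterByExpr (minimum count 10, minimum total 15) chose the genes, TMM set the scaling, and the robust quasi-likelihood test of edgeR, with no covariate, compared the groups. P-values were adjusted over all 17072 genes by Benjamini and Hochberg, with a threshold of 0.05. SEs were taken as the log2 fold change divided by the root of F, and they and the 95% limits are approximate. The edgeR test was run on simulated counts with known changes as a check of the code. Members and lists were chosen with earlier results of these data known. Values in every library are given for called members and those with at least 20 CPM in a group; up to 4 called genes of each other list with at least 5 CPM are named, or else 2 by level. Values of other members, of Ctsb and of single marker genes were chosen after they were seen. Promoter sequences are RefSeq's (GRCm38.p6); exon lengths, overlaps and shared stretches of 50 bases are from GENCODE M21. Alternatives were other scalings, filters, tests and thresholds, a replicate block, Y-linked status as a term, summed copies, and libraries left out.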

Additional observations from a re-analysis of the deposited data

How the results depend on the processing

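Of the 31 members 5 were lower in hyperoxia (against 4.41% of all genes tested). With no filter on low counts 16 were (4.38%), and by DESeq2 9 were (6.96%). Without hyperoxia 2 and room air 3 together 3 were (4.16%), and at a threshold of 0.01 only 1 was (1.36%). Leaving out 1 library gave 1 to 12 (2.12% to 4.26%). The count of higher members was 0 in every alternative run (against 3.26% to 9.48% of all genes tested). Of the 88 other pathway genes tested 8 were higher (against 6.77% of all genes tested in that fit). There were 13 of 98 with no filter (5.61%), 5 at a threshold of 0.01 (3.26%) and 5 to 8 with 1 library left out (3.85% to 6.23%). Another 9 were lower (4.41%), against 2 at 0.01 (1.36%), 14 at 0.1 (7.23%) and 3 to 8 with 1 library left out (2.12% to 4.26%). Among single members, 439 of the alternative values kept direction and call, 31 gained a call and 21 lost one. The sign turned for uncalled genes. With 1 library left out, the log2 fold change ran from -0.264 to 0.0509 for H2-T22, from -0.27 to 0.13 for Tap1 and from -0.244 to 0.0489 for Tapbpl. It was -0.0485 for H2-T23 with Y-linked status as a term and 0.0051 for Tapbpl without hyperoxia 2 and room air 3 together. The cause was not tested. Calls over all genes, 1156 higher and 753 lower, became 681 and 376 without room air 2, 713 and 430 without hyperoxia 3, 556 and 233 at a threshold of 0.01, and 1591 and 1243 of 28362 with no filter. With the replicate block 5 members were lower (against 3.01% of all genes tested). H2-M3 (edgeR adjusted p = 0.0615) and H2-Ob (0.0878) were lost, and Psmb8 (0.047) and Psmb9 (0.0343) gained. Same-numbered libraries correlated by 0.11, -0.04 and -0.09 in their deviations from group means, so the numbers were not taken as pairs; not every library correlated best with its own number. Depth did not limit the abundant genes; for H2-Q6 and H2-Oa, at 22 to 164 counts per library, counting error is part of the spread.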
